A study of Mus musculus with 6 samples.

Results

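The genes described here are Cenpf and 9 genes whose protein products have been reported to bind its product, and they were listed by name for that reason, with earlier results of these data known. A gene was measured where a probe of the array was annotated to it alone, and a gene with several such probes would have been read from the one with the highest mean over the 6 arrays. Of the 10 genes 9 had such a probe, 1 each, out of 19938 genes on the array. The only probe for Rhot2 is shared with Wdr90, so Rhot2 is not reported here. The hearts came from mice aged 12 months, 3 labelled wild-type and 3 labelled Cenpf knockout, with no treatment and 1 array per heart. The replicates are labelled biological. The labels name neither the allele, nor the cells in which Cenpf was removed, nor the strain, nor the sex. In whole-heart RNA, fewer cells of a type and less RNA per cell cannot be told apart.

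Cenpf encodes centromere protein F, a very large coiled-coil protein that binds microtubules. In dividing cells it accumulates in the nucleus before mitosis, gathers at the nuclear envelope through the pore protein Nup133, moves to the outer kinetochore and is then degraded. Nde1 and Ndel1 are paralogous adaptors that join it to Lis1, encoded by Pafah1b1, and through Lis1 to the minus-end motor dynein. Outside the kinetochore its partners are the mitochondrial outer-membrane GTPases Rhot1 and Rhot2, also called Miro, the membrane fusion protein Snap25, the retinoblastoma protein Rb1 and the stress-response transcription factor Atf4. Adult heart muscle cells seldom divide, and the heart also holds fibroblasts, endothelial cells, smooth muscle, nerves and immune cells.

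Values are deposited log2 values, and a difference is the knockout mean minus the wild-type mean. A level of 6.35, the 95th percentile of the mean values of 1210 olfactory and vomeronasal receptor probes, was taken as background. All 10 markers of heart muscle lay above it, with list means of 13.39 to 13.48 in wild-type and 13.36 to 13.54 in knockout hearts. The threshold for a call was an adjusted p of 0.05 over 21789 probes, which 0.0275% of them passed, 0.0138% as higher and 0.0138% as lower in knockout hearts. Of the wild-type hearts, replicate 3 lay closest to the knockout mean, by an average of 0.156 per probe against 0.200 and 0.218 for replicates 1 and 2. Levels of different probes are not comparable, so each gene is compared only with itself and with background.

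Cenpf was the only one of the 9 measured genes that differed between the groups at the threshold, and it fell about 4-fold. It read 8.75, 8.54 and 8.04 in wild-type replicates 1, 2 and 3, and 6.35, 6.10 and 6.68 in knockout replicates 1, 2 and 3. All wild-type hearts lay well above the background level, while knockout replicate 1 was level with it, replicate 2 below and replicate 3 above. The groups were separated by a gap of 1.36 between the lowest wild-type and the highest knockout heart. The difference was -2.07 (SE 0.21, 95% confidence interval -2.54 to -1.60, limma adjusted p = 0.0286), a wild-type level 4.20 times that of the knockout hearts, with an interval of 3.02 to 5.82. Since the knockout mean lay only 0.025 above background, the transcript remaining was not resolved and the fold is that of the measured values. By exact permutation of the group labels over the 6 hearts, two-sided, p was 0.1, and 3 against 3 can give none smaller. Leaving out wild-type replicate 3 kept the call (adjusted p = 0.00508). Leaving out any of the other 5 arrays lost it, with adjusted p from 0.0689 to 0.198, while the difference stayed between -2.22 and -1.92. The position of the probe relative to the deleted part is not stated, and a probe outside it would be no check of the genotype labels. Among all 21789 probes, 6 had a difference at least this large in size, Cenpf included, and 5 of these were lower.

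**Figure D1:**
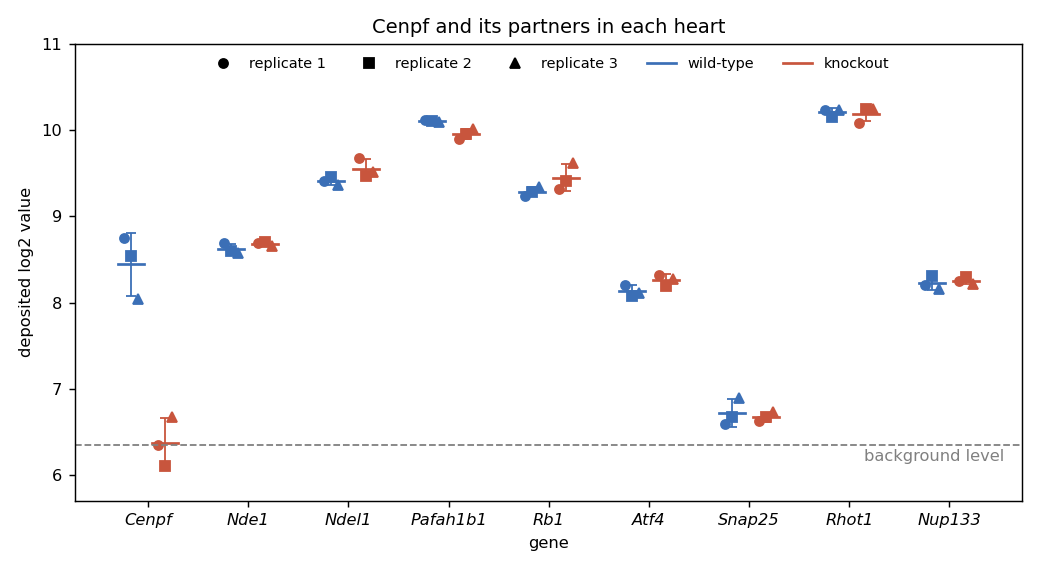
Deposited log2 values of Cenpf and its 8 measured partners in each heart, with wild-type in blue and knockout in red, marker shape giving the replicate, lines the group means and bars the SD (n = 3). The Cenpf groups lie apart by 1.36. Against the dashed background level of 6.35, knockout replicate 1 is level with it, replicate 2 lies below and replicate 3 above. Each partner's groups lie at most 0.16 apart in mean.

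Across the 8 measured partners 0 were called higher and 0 lower by limma, and 0 had an unadjusted p under 0.05, beside 9.9% of all probes. Of the partners 5 had a higher and 3 a lower mean in knockout hearts, with a median difference of 0.048, beside -0.0082 over all probes. The largest difference in size was 0.16, for Rb1. Every one of the 8 intervals contained 0, and the bound farthest from 0 was 0.41, or 1.33-fold. That bound was Rb1's, and other intervals were narrower, as for Rhot1 with -0.24 to 0.20. For each partner, changes inside its own interval could not be resolved with 3 hearts a group. The groups did not overlap for 2 partners, Ndel1 and Pafah1b1, or 25%, beside 14.8% of all probes. Ndel1 was on the higher side, as were 7.33% of all probes, and Pafah1b1 on the lower side with 7.47%.

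**Figure D2:**
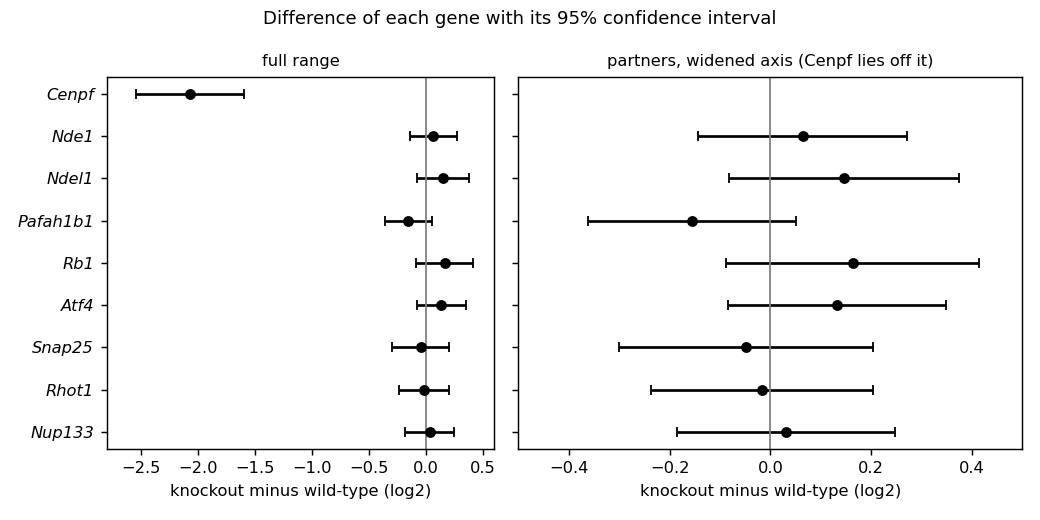
Knockout minus wild-type difference of each gene on the log2 scale, with the 95% confidence interval from limma as bars. On the left Cenpf stands at -2.07, and on the right the intervals of the 8 partners, on a widened axis, each cross 0 and end within 0.41 of it.

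The adaptors of the dynein route were measured well above background. Nde1 was at 8.69, 8.60 and 8.57 in wild-type hearts and at 8.69, 8.70 and 8.66 in the knockout hearts. Its difference was 0.064 (SE 0.090, 95% interval -0.14 to 0.27, adjusted p = 0.833), and the groups overlapped. Ndel1, the paralog of Nde1, read 9.40, 9.46 and 9.36 in the wild-type and 9.68, 9.47 and 9.51 in the knockout hearts. All knockout values were higher, by a gap of only 0.011, and the difference of 0.15 (SE 0.10, 95% interval -0.08 to 0.37, adjusted p = 0.646) was 0.084 without knockout replicate 1. Pafah1b1, whose product Lis1 regulates dynein, was at 10.12, 10.11 and 10.10 in wild-type hearts and at 9.89, 9.95 and 10.01 in the knockout hearts. The wild-type hearts were nearly identical (SD 0.010, n = 3), and every knockout heart lay below them, by a gap of 0.088. The difference of -0.16 (SE 0.09, 95% interval -0.36 to 0.050) had the smallest p of the partners, 0.119 unadjusted and 0.587 adjusted by limma. It kept its sign in all 17 alternatives, some of which could not change it, between -0.18 and -0.13, with adjusted p from 0.412 to 0.863.

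Nup133, a scaffold subunit of the nuclear pore, read 8.20, 8.31 and 8.15 in the wild-type and 8.24, 8.30 and 8.21 in the knockout hearts. The wild-type values spanned the knockout values, and the difference was 0.031 (SE 0.094, 95% interval -0.18 to 0.25, adjusted p = 0.937). Rhot1, which anchors the motor adaptors Trak1 and Trak2 to the mitochondrial surface, read 10.24, 10.15 and 10.24 in the wild-type and 10.09, 10.24 and 10.24 in the knockout hearts. Only knockout replicate 1 stood lower, and the difference was -0.016 (SE 0.096, 95% interval -0.24 to 0.20, adjusted p = 0.971). Snap25, a SNARE protein of nerve endings and endocrine cells, read 6.59, 6.67 and 6.90 in the wild-type and 6.62, 6.67 and 6.73 in the knockout hearts. These values lay close to background, 0.37 above it in wild-type and 0.32 in knockout hearts, with wild-type replicate 3 highest. Its difference was -0.048 (SE 0.110, 95% interval -0.30 to 0.20, adjusted p = 0.907). Of the nerve markers, 7 of 11 measured lay above background in at least 1 group, beside 14389 of all 19938 genes. Their list means were 6.58 to 6.72 in wild-type and 6.69 to 6.85 in knockout hearts.

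The 2 partners that act on transcription had similar small differences. Rb1, which restrains E2F factors and entry into the cell cycle, read 9.23, 9.28 and 9.34 in the wild-type and 9.32, 9.41 and 9.62 in the knockout hearts. The groups overlapped in part, with knockout replicate 3 the highest of the 6. The difference was 0.16 (SE 0.11, 95% interval -0.09 to 0.41, adjusted p = 0.639), and 0.077 without knockout replicate 3. Atf4, which drives genes of amino acid supply and stress recovery, read 8.21, 8.07 and 8.11 in the wild-type and 8.32, 8.19 and 8.28 in the knockout hearts. The lowest knockout heart lay just under the highest wild-type heart, and the difference was 0.13 (SE 0.09, 95% interval -0.08 to 0.35, adjusted p = 0.657).

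**Figure D3:**
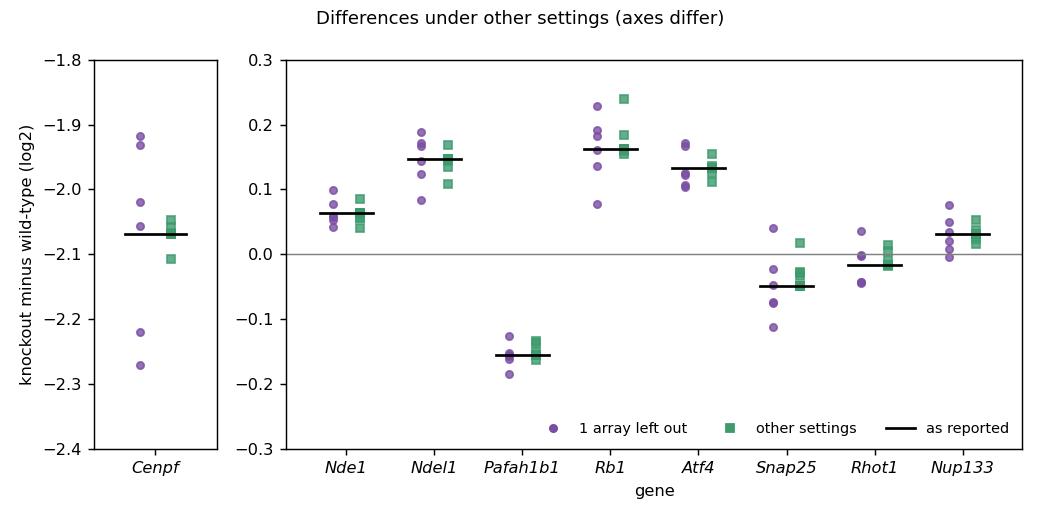
Knockout minus wild-type difference of each gene (log2) as reported (black line), with each array left out in turn (purple circles) and under the other settings (green squares), on separate axes for Cenpf and the partners. Cenpf stays between -2.27 and -1.92. Snap25, Rhot1 and Nup133 cross 0, Nup133 only without wild-type replicate 3, at -0.0036.

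Genes that work with the partners were described from 9 lists holding 185 measured genes. Of these 0 were called by limma in either direction, and 21 had an unadjusted p under 0.05, or 11.4% beside 9.9% of all probes. Of the 185 genes, 14 were higher and 7 lower at that p, beside 4.66% and 5.24% of all probes. Of the 14, 7 were on the G2/M proliferation list. The median difference over all genes was -0.0060. Cenpf is itself transcribed ahead of mitosis, but it is the gene knocked out, so its level is no readout of that phase here. The G2/M proliferation list is described by itself. Of its 21 measured genes 16 had a higher mean in knockout hearts and 5 a lower one, with a median of 0.30. None was called, and 7 had an unadjusted p under 0.05, all higher. The array means of the list were 6.40, 6.41 and 6.68 in wild-type and 6.84, 6.76 and 6.70 in knockout hearts. Wild-type replicate 3 came close to the knockout hearts, but no wild-type heart reached them. Without that array 13 of the genes had such a p, and leaving out wild-type replicate 1 gave 4. Calls over all 21789 probes moved the same way, from 6 as reported to 293 and 1 respectively. The share of all probes at an unadjusted p under 0.05 is not given for these settings. The rise to 13 and the fall to 4 therefore cannot be told from a shift over the whole array. Many transcripts of the list were near background: of the 16 with a 6-array mean over that level, 12 were higher and 5 had an unadjusted p under 0.05.

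Foxm1, the transcription factor that activates G2/M genes, read 6.21, 6.40 and 6.35 in wild-type and 6.72, 6.91 and 6.74 in knockout hearts. Its wild-type mean lay below background, and the difference of 0.47 (SE 0.10) did not pass (adjusted p = 0.357). Top2a, the topoisomerase that untangles chromosomes, read 5.99, 5.78 and 6.12 in wild-type and 6.64, 6.61 and 6.31 in knockout hearts. Its wild-type hearts were all below background, the difference of 0.56 (SE 0.13, adjusted p = 0.368) did not pass, and the other of its 2 probes, far below background, differed by -0.18. In the kinetochore and checkpoint list only 14 of 30 genes lay above background in a group, with 14 higher, 16 lower and a median of -0.014. Cenpa, the centromeric histone, had its smallest p, with 9.92 ± 0.25 in wild-type and 10.31 ± 0.02 (SD, n = 3) in knockout hearts (adjusted p = 0.455), followed by Spdl1 with -0.24 (adjusted p = 0.529), below background in both groups.

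The sequence upstream of Cenpf is shown with that of Top2a, as 2 genes of the same cell cycle phase. The Top2a difference was not called and its 2 probes disagreed in sign, so the pair shows no established contrast in expression. The stretches are the 250 bases before the annotated start on the transcribed strand, from RefSeq on GRCm38.p6. Capitals mark CCAAT, the box bound by the factor NF-Y, and TTTGAA, a form of the cell cycle homology region, on either strand. Other forms of that region were not searched for or marked, so a count of 0 for TTTGAA does not show its absence.
Cenpf, chr1:189688087-189688336, minus strand: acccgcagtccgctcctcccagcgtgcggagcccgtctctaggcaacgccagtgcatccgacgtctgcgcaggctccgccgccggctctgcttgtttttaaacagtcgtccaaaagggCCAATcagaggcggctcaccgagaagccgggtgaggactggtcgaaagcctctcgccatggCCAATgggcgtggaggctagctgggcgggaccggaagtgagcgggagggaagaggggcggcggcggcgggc
Top2a, chr11:99024190-99024439, minus strand: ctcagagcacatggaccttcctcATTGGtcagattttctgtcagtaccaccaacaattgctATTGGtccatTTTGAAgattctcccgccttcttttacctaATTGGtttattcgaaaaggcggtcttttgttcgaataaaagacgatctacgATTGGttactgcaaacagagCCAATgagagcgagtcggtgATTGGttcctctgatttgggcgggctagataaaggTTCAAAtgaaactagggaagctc
The Cenpf stretch held CCAAT 2 times, beginning 132 and 71 bases before the start, and TTTGAA 0 times. The Top2a stretch held CCAAT 6 times and TTTGAA 2 times, counting both strands. Of 32851 promoters of the same length, 33.8% held CCAAT and 16.0% TTTGAA, against 88.9% and 50.0% of the 18 promoters found for the G2/M list. Promoters were found for 6 of the 8 measured partners, of which 2, those of Nde1 and Atf4, held CCAAT and 0 held TTTGAA. A match of letters is a description and shows no binding.

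The dynein and dynactin list had 12 of 21 measured genes higher and 9 lower, with a median of 0.020. Dync1h1, the motor's heavy chain, differed by 0.085 (adjusted p = 0.853), and Dctn1, the dynactin subunit that holds the microtubule, by 0.14 (adjusted p = 0.697). Clip1, which encodes the plus-end protein CLIP-170, had the smallest p, with 9.49, 9.62 and 10.57 in wild-type and 10.51, 10.62 and 10.42 in knockout hearts. Wild-type replicate 3 read like the knockout hearts, and the difference of 0.62 (SE 0.26) did not pass (adjusted p = 0.494). Dynll2, a dynein light chain, followed with 0.25 (adjusted p = 0.536).

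In the nuclear pore list 8 of 22 genes were higher and 14 lower, with a median of -0.064. Of the subunits that form a complex with Nup133, Nup107 differed by 0.048 (adjusted p = 0.945), Nup160 by -0.19 (adjusted p = 0.709), Nup43 by -0.26, Nup37 by -0.12, Nup85 by -0.082, Nup98, which also encodes the subunit Nup96, by 0.090 and Seh1l by 0.0032, none of them called. The smallest p of the list were those of Sec13, a subunit of that complex which also serves in the coat of transport vesicles, with -0.31 (SE 0.11, adjusted p = 0.455), and of Nup205, of the inner ring, with -0.21 (adjusted p = 0.544). Both had groups that did not overlap, and both were named for their small p. Over the list this held for 4 of 22 genes, all on the lower side, beside 7.47% of all probes. The list of mitochondrial transport and dynamics had 11 of 18 genes higher and 7 lower, with a median of 0.026. Trak1 and Trak2 differed by 0.16 (adjusted p = 0.660) and 0.17 (adjusted p = 0.654), and the smallest p were those of the kinesin Kif5c with -0.27 (adjusted p = 0.516) and the fission factor Mff with -0.30 (adjusted p = 0.529).

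In the SNARE list 9 of 18 genes were higher and 9 lower, with a median of -0.014. Snap23, the form of Snap25 found outside nerves, read 11.77, 11.72 and 11.64 in wild-type and 11.73, 11.70 and 11.60 in knockout hearts. It lay far above background and differed by -0.037 (SE 0.095, 95% interval -0.25 to 0.18, adjusted p = 0.922). Vamp3, a vesicle SNARE of recycling endosomes, read 10.98, 11.02 and 10.90 in wild-type and 10.74, 10.41 and 10.47 in knockout hearts. Every knockout heart lay below every wild-type heart, and the difference of -0.43 (SE 0.11) did not pass (adjusted p = 0.380). Vamp8 differed in the same direction, by -0.33 (SE 0.10, adjusted p = 0.424), again without overlap between the groups. Over the list the groups did not overlap for 1 gene on the higher and 2 on the lower side, beside 7.33% and 7.47% of all probes.

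The Rb and E2F list had 12 of 22 genes higher and 10 lower, with a median of 0.013. The relatives of Rb1 differed by -0.16 for Rbl1 (adjusted p = 0.719) and 0.099 for Rbl2 (adjusted p = 0.765). The smallest p were those of E2f8, a repressor in the E2F family, with 0.54 (adjusted p = 0.426) from a wild-type mean below background, and of the kinase Cdk6 with -0.33 (adjusted p = 0.469). Of 28 measured ATF4 targets 19 were higher and 9 lower, with a median of 0.051. Atf3, a stress-induced transcription factor, read 7.80, 8.19 and 8.28 in wild-type and 8.59, 9.49 and 9.13 in knockout hearts. The groups did not overlap, and the difference of 0.98 (SE 0.23) did not pass (adjusted p = 0.368). Ppp1r15a, a phosphatase subunit that ends the stress response, differed by 0.36 (SE 0.10, adjusted p = 0.391). At an unadjusted p under 0.05 the list had 3 of 28 genes higher and 3 lower, beside 4.66% and 5.24% of all probes. Its groups did not overlap for 3 genes on the higher and 4 on the lower side, beside 7.33% and 7.47% of all probes. The 5 measured genes of protein farnesylation, the lipid modification that Cenpf carries, had a median of 0.034, and their smallest p were those of Fnta with -0.19 (adjusted p = 0.592) and Rce1 with -0.15 (adjusted p = 0.646).

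**Figure D4:**
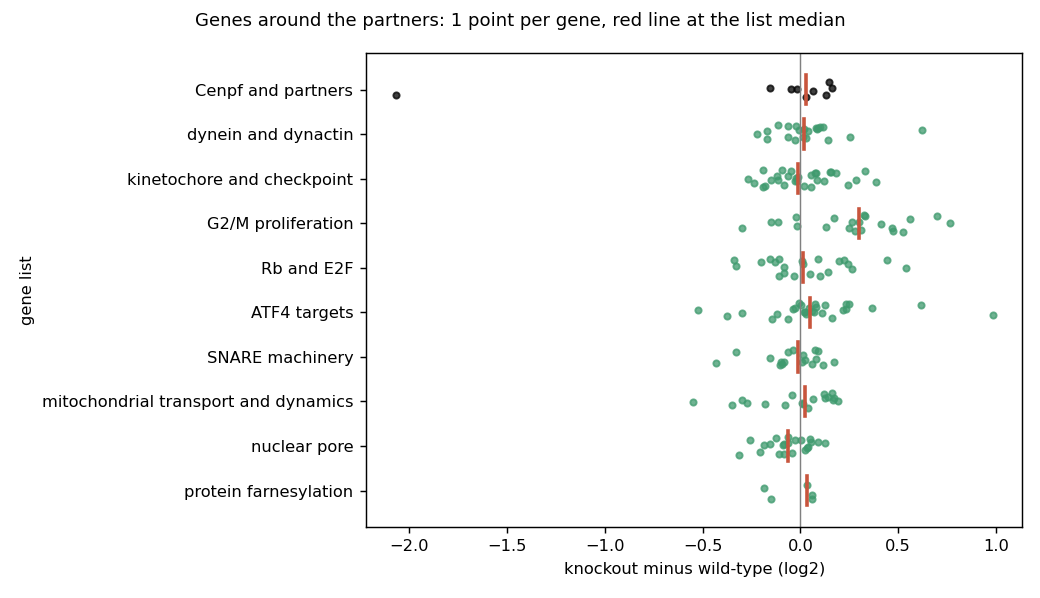
Knockout minus wild-type difference (log2) of every measured gene of each list, 1 point per gene, with a red line at the list median. Cenpf stands alone at -2.07, the G2/M proliferation list has the median farthest from 0 at 0.30, and the medians of the other lists of genes around the partners lie between -0.064 and 0.051.

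Among the genes beside Cenpf on chromosome 1 no difference was called. The 5 measured genes on either side, by their order in RefSeq's GRCm38.p6 annotation, were D1Pas1, Spata17, Gpatch2, Esrrg and Kcnk2 on one side and Ptpn14, Smyd2, Prox1, Rps6kc1 and Angel2 on the other. Their differences lay between -0.14, for D1Pas1, and 0.17, for the potassium channel Kcnk2. Limma called 0 of the 10, 0 had an unadjusted p under 0.05 and the groups overlapped for all of them, while 8 lay above background. Over all probes these shares were 0.0275%, 9.9% and, for groups that do not overlap, 14.8%, so counts of 0 in 10 lie near the background.

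**Figure D5:**
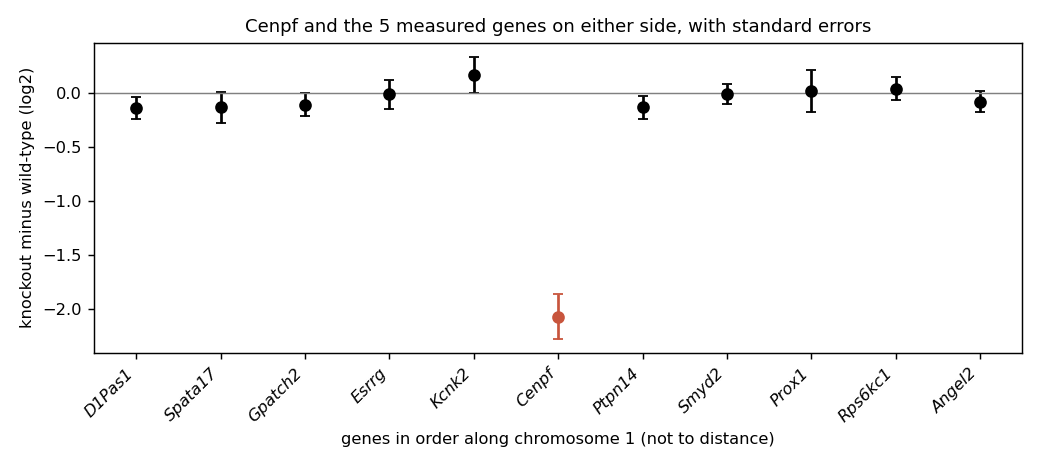
Knockout minus wild-type difference (log2, with standard error) of Cenpf, in red, and of the 5 measured genes on either side along chromosome 1, in order and not to distance. The 10 neighbours lie between -0.14 and 0.17, and Cenpf at -2.07.

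Of 14388 other genes above background in at least 1 group, those whose pattern over the 6 hearts was most like that of Cenpf were the small nucleolar RNA gene Snord53, the interferon-induced Ifit3, the receptor gene Gpr75, the ephrin receptor Ephb1 and the water channel Aqp4. Likeness was the mean absolute difference from Cenpf after centring each gene on its own mean, and ran from 0.23 for Snord53 to 0.39 for Aqp4. The measure favours genes with a fall of a similar size, and the low wild-type replicate 3 that these genes share with Cenpf is part of it. Snord53 read 10.19, 9.99 and 9.28 in wild-type and 7.04, 7.55 and 7.75 in knockout hearts, and it passed, with -2.38 (SE 0.26, adjusted p = 0.0449). Ifit3 differed by -1.50 (SE 0.17, adjusted p = 0.0502), Gpr75 by -1.75 (SE 0.35, adjusted p = 0.263) and Aqp4 by -1.45 (SE 0.39, adjusted p = 0.386), and these did not pass. Ephb1 read 8.75, 8.22 and 7.56 in wild-type and 6.96, 6.75 and 6.86 in knockout hearts, a difference of -1.32 (SE 0.26) that did not pass (adjusted p = 0.263). Marker lists of smooth muscle and fat had the order of Cenpf among the wild-type hearts, with means of 9.22, 8.98 and 8.64 for smooth muscle and 7.05, 6.86 and 6.46 for fat in replicates 1, 2 and 3. The knockout means were 8.68, 8.60 and 8.74 for smooth muscle, with all 5 markers above background in a group, and 6.51, 6.34 and 6.46 for fat, with 3 of 4. The smooth muscle list was uneven, with Acta2 at -1.28 (wild-type SD 1.04, n = 3, adjusted p = 0.455), Myh11 at 0.32 and Cnn1 at -0.022. The same order among wild-type hearts held for the nuclear pore, SNARE, mitochondrial transport, and Rb and E2F lists, so it is not particular to these markers. The part of these cell types in the values of Cenpf was not tested.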

How the data were processed

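RNA of 6 mouse hearts was hybridised to Affymetrix mouse gene arrays, 1 array per heart. Per the submitters' processing notes, the authors made the deposited log2 values with RMA and Partek 6.6, and no settings are stated. RMA corrects background, normalizes between arrays and summarises probes. Array medians lay between 6.92 and 6.97, and no further normalization or filter was applied.

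Of 35556 probes, 21789 carried exactly 1 gene symbol in the platform annotation and were fitted together with limma 3.58.1 in R 4.3.3 (lmFit, eBayes, two-sided, Benjamini-Hochberg over all 21789). The 1621 probes with several symbols were not named. The test was checked on simulated data. For each member, 18 to 20 of 20 neighbours in probe order lay on its gene's chromosome.

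The members and lists were chosen with earlier results of these data known. Named are all members, fixed relatives, the 2 genes of smallest p per list, 5 genes most like Cenpf and its 10 chromosomal neighbours. Outside these rules, further subunits of the Nup133 complex and Cnn1 are also named. The number of arrays limits the precision. Alternatives were 3 normalizations, 2 filters, other variance models, a replicate block, another probe family or summary, and each array left out. Figures were drawn with matplotlib 3.10.9.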

Additional observations from a re-analysis of the deposited data

How the results depend on the processing

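Cenpf kept its direction in all 17 alternatives, with adjusted p from 0.00508 to 0.476. For the measured genes only the other normalizations, array weights and leaving out an array could change a difference, and so a direction. The remaining alternatives changed only the p. Cenpf did not pass with all probes of the table tested (-2.07, adjusted p = 0.281) or with a plain linear model (-2.07, adjusted p = 0.476). Leaving out 1 array gave -2.27 to -1.92. No partner was called in any alternative run, with the lowest adjusted p at 0.276. Of 136 partner results 130 kept their direction, counting those in which it could not change. Rhot1 reversed to 0.0052 with array medians subtracted and to 0.015 with array weights, and with 1 array left out ranged from -0.045 to 0.036. Snap25 reversed to 0.018 with array weights, and with 1 array left out ranged from -0.11 to 0.041. Nup133 ranged from -0.0036 to 0.076 with 1 array left out. The causes were not tested.

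The number of probes called, 6 as reported, was 1 with all probes tested, 33 with array weights, 22 with trend and robust variance, 0 with a plain linear model, 2157 at an unadjusted p under 0.05, and 1 to 293 with 1 array left out, the highest without wild-type replicate 3. With the replicate number as a block it was 11, with 4 higher and 7 lower, and Cenpf differed by -2.07. Deviations of same-numbered hearts correlated at -0.114, -0.158 and -0.003, and those of differently numbered hearts at -0.020 to 0.139. The values thus showed no pairing by number. A correlation over probes cannot settle whether hearts were paired, and the labels do not say. By the higher of its group means, each of the 9 measured genes lay above background. With the 99th percentile of the receptor probes in place of the 95th, 8 did. The knockout mean of Cenpf lay only 0.025 above background. Alternatives for the G2/M list were chosen after seeing the data, and gave 4 to 13 genes at an unadjusted p under 0.05 with 1 array left out. For those settings no share of all probes at that p is given to compare them with.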
